A study of Mus musculus with 12 samples.

Results

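The interferon response and antigen presentation genes described here are 35 mouse genes given by name, and 34 of them were measured among the 12394 genes named on the arrays. Each gene was represented by the probe set annotated to it alone that had the highest mean log2 signal over the 12 arrays. Isg15, an interferon-induced ubiquitin-like protein, was dropped because its probe set is annotated to more than 1 gene. By role, the 34 genes were 1 RNA sensor, 5 transcription factors of the STAT and IRF families, 14 antiviral effectors, 5 interferon-inducible GTPases, and 9 genes of antigen processing and major histocompatibility complex (MHC) class I.

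Interferons are secreted proteins that bind receptors on the cell surface and, through Janus kinases, activate STAT and IRF transcription factors, which enter the nucleus and switch on interferon-stimulated genes. The products of these genes sense foreign RNA, block virus replication and raise antigen presentation, in which the immunoproteasome cuts proteins, the TAP transporter moves the peptides into the endoplasmic reticulum, and tapasin loads them on MHC class I molecules bound to beta-2-microglobulin. Hepatocytes are known to show little MHC class I at rest and more of it under interferon.

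The arrays measured total RNA of BMEL (bipotential mouse embryonic liver) cells, which are fetal liver progenitors grown as lines and able to form cells of either the hepatocyte or the bile duct lineage. The lines 14B3 and 9A1 were isolated independently from dpc14 embryonic livers of the CBA/J x C57Bl/6J strain, and per the labels' citation BMEL lines come from wild-type embryos. Each is 1 line, so a difference between them is between those lines, and whether the lines differ in genotype was not tested. The groups were 14B3 and 9A1 cells in basal culture (days in culture not given), as aggregates for 5 days, and in Matrigel, a basement membrane gel, for 10 days, with 2 arrays per group; the labels give Matrigel_14B3 replicate 1 as 5 days. No added interferon, virus or other agent is named in the labels used here. The submitters name the 2 arrays of a group biological replicates without saying whether they came from separate cultures, so a p-value here reflects the spread between these arrays alone, and that spread may be technical.

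Values are log2 of the deposited signal, and the median log2 over genes was 8.38 to 8.46 on the 12 arrays. The number of arrays limits the precision, and the files hold no call of which signals lie above background. A gene was called when its adjusted p in limma (Benjamini-Hochberg over 12394 genes, two-sided) was below 0.05. Checked against liver markers, the log2 signal of Hnf4a, a hepatocyte transcription factor, lay at 11.32 to 12.68 over all arrays, and that of the epithelial keratin Krt8 at 13.60 to 13.93. Albumin (Alb) ran from 7.71 to 13.69, low in basal culture. Of 27 measured leukocyte markers, 1 was called between the lines in aggregates (Csf1r, 3.7% of the list, against 1.52% of all genes). In Matrigel 2 were called (Csf1r and Kit, 7.41%, against 3.77%), and both genes are described below. Ptprc, the pan-leukocyte marker, lay at 5.37 to 6.52, the T cell marker Cd3e at 8.61 to 9.24, the macrophage marker Adgre1 at 6.55 to 7.42 and the endothelial marker Pecam1 at 6.14 to 6.58, with no call between the lines in any culture. In these bulk samples, fewer cells of a type and less RNA per cell cannot be told apart.

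Sequences upstream of 4 genes are shown. Ifi202b differed most between the lines, and the response of Irgm1 to aggregate culture differed between the lines. Ifit1 and B2m are examples from the 17 members that rose in aggregates of both lines. The sequences are RefSeq reference bases of the GRCm38.p6 build, from 250 bases before the annotated start up to it. They were not read from these cells. Capitals mark matches on either strand to GAAANNGAAA, the core of the element bound by the STAT and IRF factors of type I interferon, or to TTCNNNGAA, the core of the element bound by STAT dimers.
Ifi202b: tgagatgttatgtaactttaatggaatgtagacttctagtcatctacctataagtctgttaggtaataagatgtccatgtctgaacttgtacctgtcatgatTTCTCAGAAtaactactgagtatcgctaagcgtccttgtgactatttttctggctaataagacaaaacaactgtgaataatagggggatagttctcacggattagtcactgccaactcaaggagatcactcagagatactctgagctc
Irgm1: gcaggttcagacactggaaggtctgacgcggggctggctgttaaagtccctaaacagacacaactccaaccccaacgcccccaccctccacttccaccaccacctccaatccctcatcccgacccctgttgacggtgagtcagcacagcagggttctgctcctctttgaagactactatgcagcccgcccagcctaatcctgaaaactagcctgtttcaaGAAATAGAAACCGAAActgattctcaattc
Ifit1: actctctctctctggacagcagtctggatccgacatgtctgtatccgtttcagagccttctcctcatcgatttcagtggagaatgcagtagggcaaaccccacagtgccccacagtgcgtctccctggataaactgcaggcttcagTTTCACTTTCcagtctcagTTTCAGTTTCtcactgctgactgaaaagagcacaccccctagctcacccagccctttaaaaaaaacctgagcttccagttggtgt
B2m: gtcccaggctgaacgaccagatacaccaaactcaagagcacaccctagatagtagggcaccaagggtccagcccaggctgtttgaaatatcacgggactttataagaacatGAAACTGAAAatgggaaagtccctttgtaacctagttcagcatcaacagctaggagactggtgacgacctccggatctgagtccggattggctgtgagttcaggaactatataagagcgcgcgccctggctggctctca
Ifi202b (chr1:173982845-173983094, minus strand) held 1 TTCNNNGAA match, 148 bases before the start, and 0 GAAANNGAAA matches. Irgm1 (chr11:48871421-48871670, minus strand) held 2 GAAANNGAAA matches that overlap each other, at 30 and 24 bases. Ifit1 (chr19:34640639-34640888, plus strand) held 2, at 104 and 85 bases, read from the other strand. B2m (chr2:122147437-122147686, plus strand) held 1, at 139 bases.

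Over all members, 29 of 34 had an upstream sequence in the RefSeq table; Usp18, Mx1, Mx2, Iigp1 and Tap2 did not. GAAANNGAAA occurred in 9 of the 29 (31.0%), against 936 of the 27025 genes of the table (3.46%), where a gene counts if any of its annotated starts has a match. It occurred in all 4 GTPase genes with a sequence (Irgm1, Igtp, Gbp2 and Gbp3), in 3 of 11 antiviral effectors, and in 1 of 8 antigen presentation genes, which was B2m. TTCNNNGAA occurred in 7 of 29 members (24.1%), against 8.13% of genes in the table. Of members that rose in aggregates in both lines, 6 of 16 with a sequence held GAAANNGAAA (37.5%), against 3 of 13 other members (23.1%). For TTCNNNGAA the shares were 2 of 16 (12.5%) and 5 of 13 (38.5%). Tapbp, Ifih1, Psmb10 and H2-D1 rose in both lines and held neither motif. Whether a motif goes with the rise was not tested. The 2 motifs overlapped each other once among the members. A match is a description and not a binding site, and no match says only that these letters are not in this window.

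**Figure D1:**
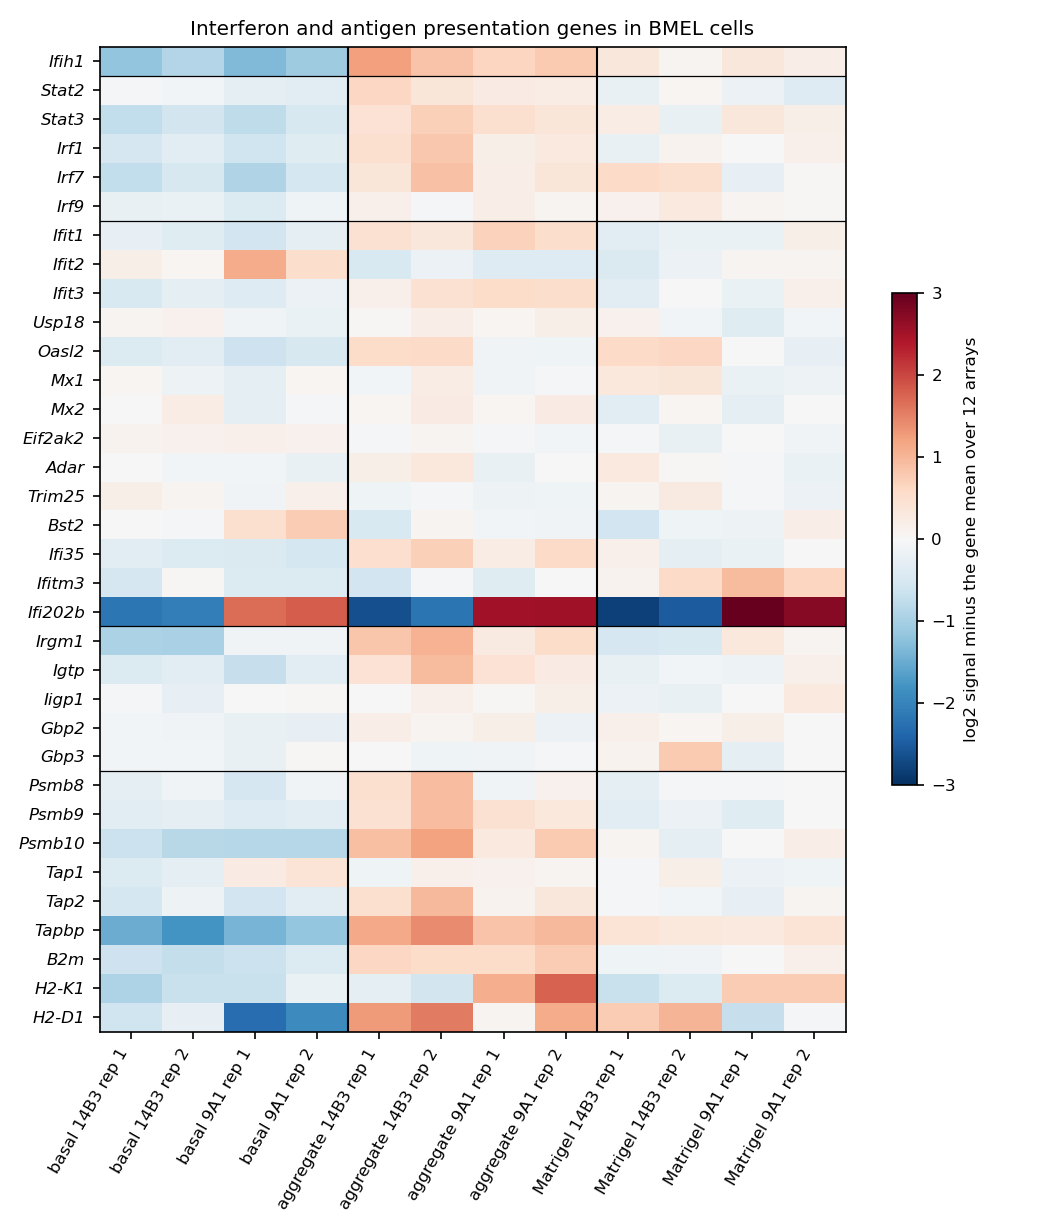
Log2 signal of the 34 genes on each of the 12 arrays, as the difference from the gene's own mean (colour, which saturates at -3 and 3), with genes in rows grouped by role and arrays in columns grouped by culture. Ifi202b separates the lines in every culture, while 17 of the 34 genes were called higher in aggregates of both lines.

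The lines were compared within each culture to ask where independently isolated progenitor lines differ in this pathway. Most of it did not pass the test between them: 28 of the 34 genes were called in no culture, and 6 (17.6%) were called in at least 1 culture, against 5.31% of all genes. The 6 were Ifi202b, H2-K1, H2-D1, Irgm1, Oasl2 and Tap1. In basal culture 4 of 34 members were called, against 1.9% of all genes, 1 of them higher and 3 lower in 14B3. In aggregates 3 were called, against 1.52% of all genes, 1 higher and 2 lower. In Matrigel 5 were called, against 3.77% of all genes, 2 higher and 3 lower. The median log2 difference over the members was 0.085 in basal culture, 0.14 in aggregates and -0.06 in Matrigel, beside 0.046, 0.028 and 0.038 over all genes.

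**Figure D2:**
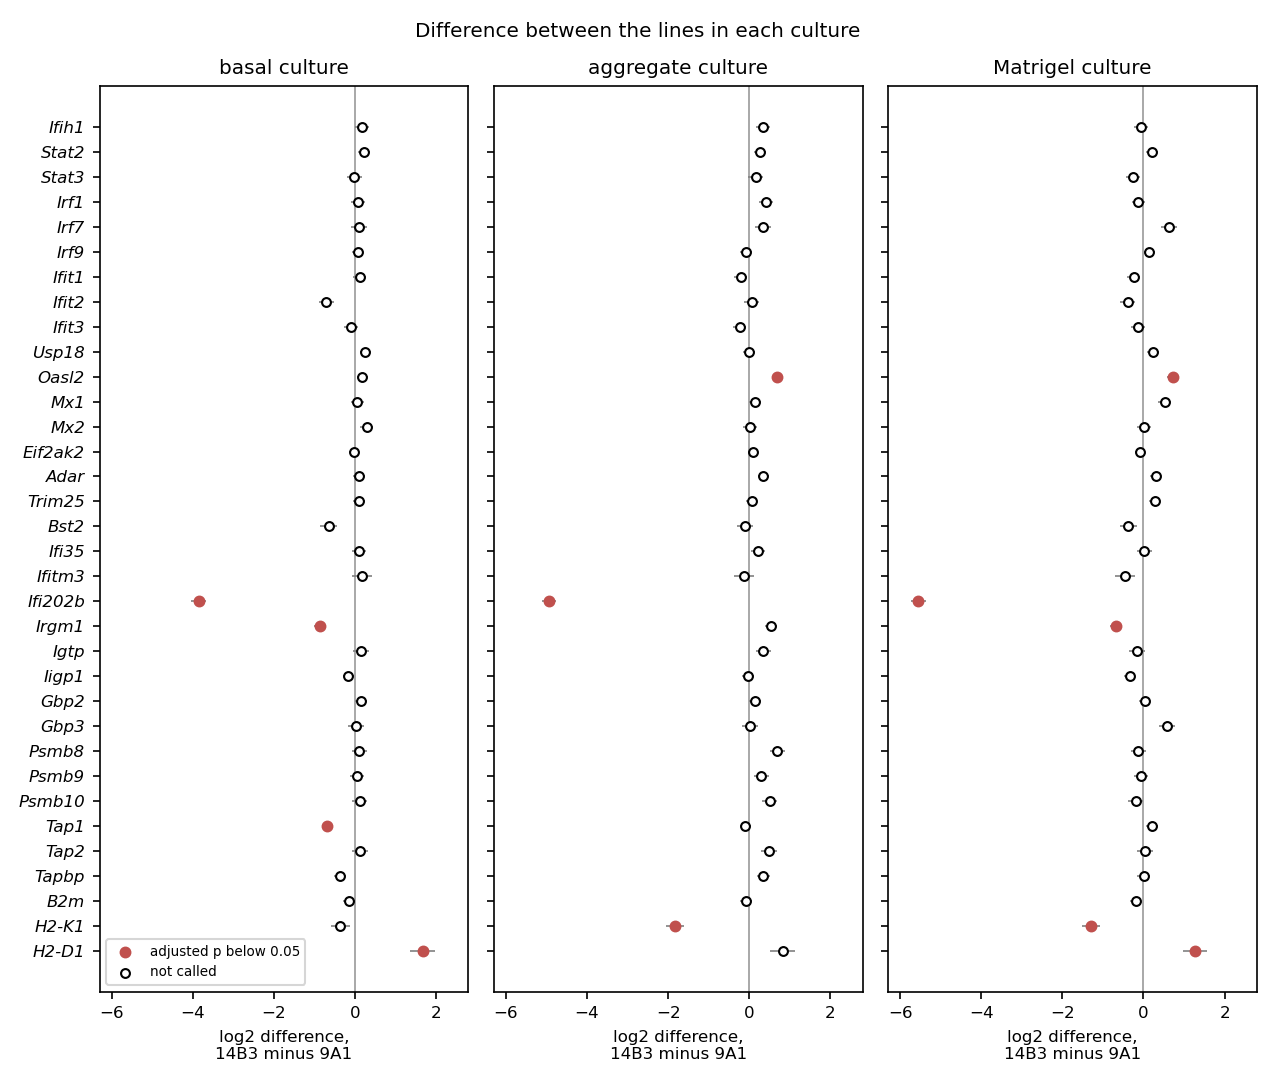
Log2 difference of 14B3 minus 9A1 for each of the 34 genes, in basal, aggregate and Matrigel culture; points are limma estimates, bars their standard errors, and filled points have an adjusted p below 0.05. Ifi202b lies at -3.86, -4.94 and -5.55, and all points of the 28 uncalled genes lie within 0.703 of 0.

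Ifi202b encodes an interferon-inducible DNA-binding protein of the cytoplasm and nucleus, and its expression is known to differ between inbred mouse strains. In basal culture its log2 signal was 6.04 and 6.13 in 14B3, against 9.87 and 10.01 in 9A1. In aggregates it was 5.57 and 6.02 in 14B3, against 10.72 and 10.75 in 9A1. In Matrigel it was 5.41 and 5.71 in 14B3, against 11.29 and 10.93 in 9A1. Every 14B3 array lay far below every 9A1 array, in all cultures. The signal was 14.5-fold lower in 14B3 in basal culture (log2 difference -3.86, SE 0.18, limma adjusted p = 6.83e-07), 30.8-fold lower in aggregates (-4.94, SE 0.18, adjusted p = 8.14e-08) and 46.9-fold lower in Matrigel (-5.55, SE 0.18, adjusted p = 2.17e-08). Averaged over cultures the difference was -4.78, which ranked as number 1 from the lowest among the 12394 genes. Whether the 14B3 signals lie above background is not known from these files, so the folds may be too small. Ifi202b has 1 probe set here, of a kind (_s_at) whose probes may match several transcripts, and no other set to compare it with.

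The difference in Ifi202b was not the same in each culture. In 14B3 its log2 change from basal culture was -0.29 in aggregates (limma adjusted p = 0.263) and -0.53 in Matrigel (adjusted p = 0.0682, and 0.0376 with the replicate number as a block). In 9A1 the gene rose in aggregates (0.80, adjusted p = 0.00383) and in Matrigel (1.17, adjusted p = 0.000851). Tested directly, the response to Matrigel differed between the lines by -1.70 (SE 0.25, adjusted p = 0.0106), and the response to aggregate culture by -1.09 (SE 0.25, adjusted p = 0.117). The call on Matrigel was lost without basal_9A1 replicate 1 (adjusted p = 0.0654).

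**Figure D3:**
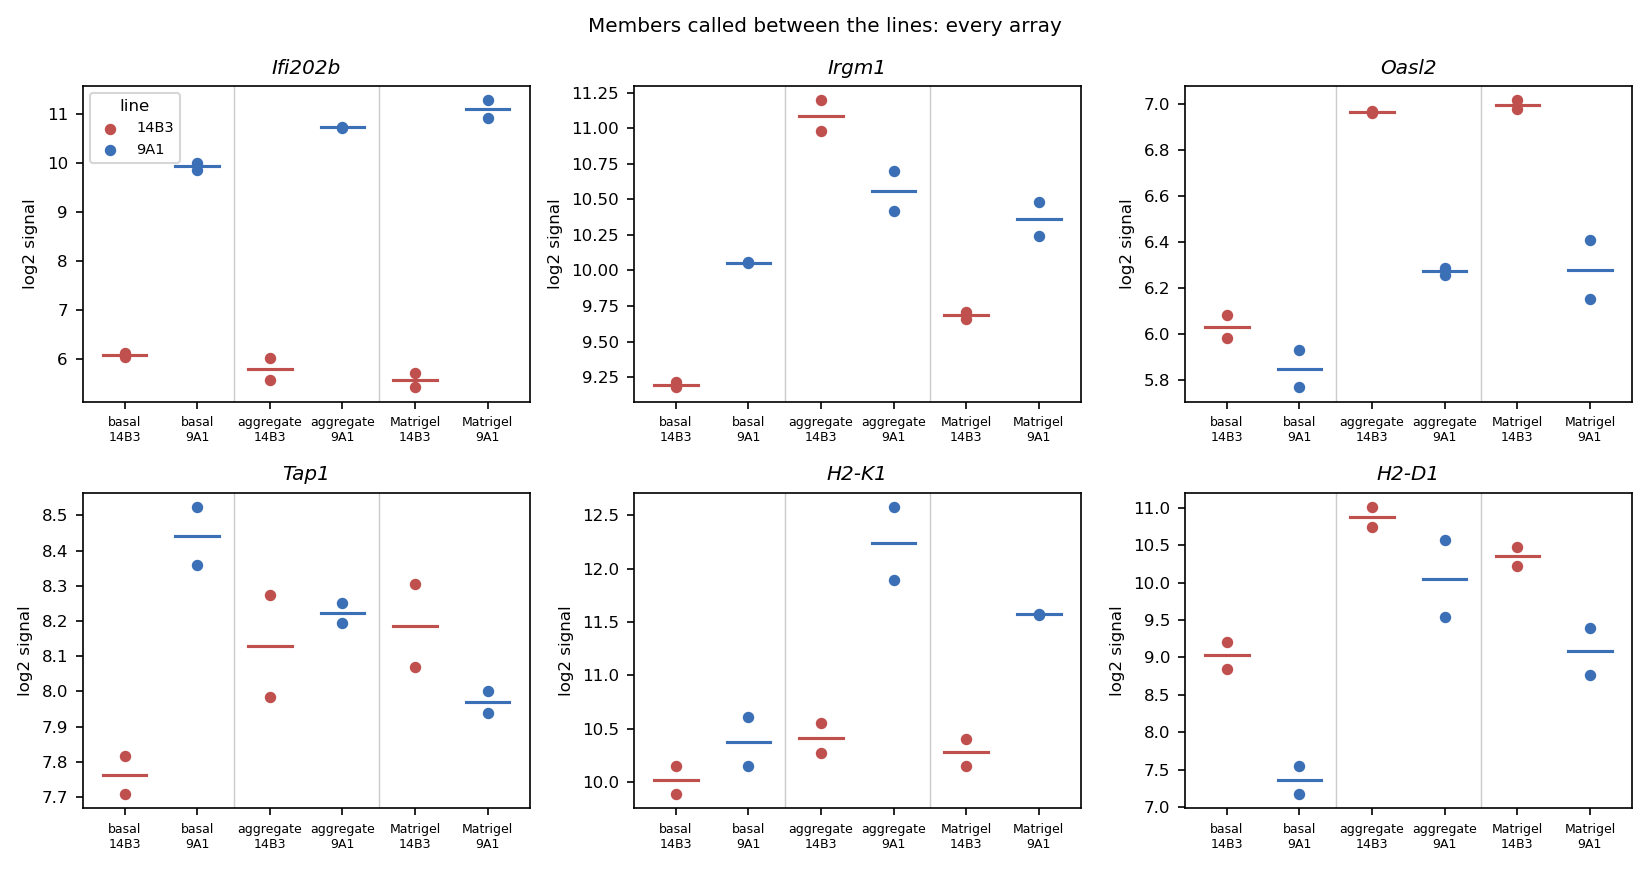
Log2 signal on each array (points) and the mean of the 2 arrays (bars) for the 6 genes called between the lines in at least 1 culture, by culture and line; the vertical axes do not start at 0 and differ between panels. Ifi202b lies at 5.41 to 6.13 on the 14B3 arrays and at 9.87 to 11.29 on the 9A1 arrays, while Irgm1 is lower in 14B3 in basal culture and Matrigel only.

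The sensing and signalling genes showed no called line difference in any culture. Ifih1 encodes MDA5, a sensor of long double-stranded RNA. Its log2 signal in 14B3 was 7.91 and 8.23 in basal culture, 10.33 and 9.97 in aggregates and 9.44 and 9.18 in Matrigel. In 9A1 it was 7.77 and 8.04, 9.74 and 9.89, and 9.44 and 9.29 in the same cultures. The arrays of the lines overlapped in basal culture and Matrigel, and lay apart in aggregates, where the difference of 0.33 had a 95% interval of -0.05 to 0.72. Both lines stood higher in aggregates and in Matrigel than in basal culture.

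Stat2 and Irf9 encode subunits of the transcription factor complex that type I interferon activates. The log2 signal of Stat2 in 14B3 was 7.62 and 7.59 in basal culture, 8.30 and 8.04 in aggregates and 7.46 and 7.74 in Matrigel. In 9A1 it was 7.42 and 7.36, 7.91 and 7.89, and 7.50 and 7.29 in the same cultures. The 14B3 arrays lay above those of 9A1 in basal culture and aggregates, by 0.22 and 0.27, and overlapped them in Matrigel, but no difference was called. For Irf9 the log2 signal in 14B3 was 7.23 and 7.25 in basal culture, 7.60 and 7.42 in aggregates and 7.58 and 7.75 in Matrigel. In 9A1 that of Irf9 was 7.04 and 7.31, 7.64 and 7.53, and 7.54 and 7.49. Its 14B3 and 9A1 arrays overlapped in basal culture and aggregates, and its largest difference was 0.14, in Matrigel.

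Irf7 encodes a factor that amplifies type I interferon production. Its log2 signal in 14B3 was 7.40 and 7.64 in basal culture, 8.49 and 9.00 in aggregates and 8.70 and 8.60 in Matrigel. In 9A1 the values were 7.23 and 7.61, 8.31 and 8.48, and 7.87 and 8.16 in the same cultures. The lines overlapped in basal culture, and 14B3 lay higher in both other cultures. The difference in Matrigel was 0.64 (95% interval 0.21 to 1.06), with a limma adjusted p of 0.129, and of 0.021 with the replicate number as a block. Stat3, the factor of interleukin signalling, and Irf1, the factor of interferon gamma, differed between the lines by at most 0.41 in any culture, the value of Irf1 in aggregates.

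Among the 14 antiviral effectors, only Ifi202b and Oasl2 were called between the lines. Oasl2 encodes a protein related to the synthetases that activate RNase L. Its log2 signal in aggregates was 6.96 and 6.97 in 14B3, against 6.29 and 6.26 in 9A1, and in Matrigel it was 6.98 and 7.02 in 14B3, against 6.41 and 6.16 in 9A1. In basal culture it was 5.98 and 6.08 in 14B3, against 5.77 and 5.93 in 9A1. The 14B3 arrays lay above the 9A1 arrays in every culture. Oasl2 was 1.62-fold higher in 14B3 aggregates (log2 difference 0.69, SE 0.13, limma adjusted p = 0.0233) and 1.64-fold higher in 14B3 in Matrigel (0.72, SE 0.13, adjusted p = 0.00967), and the basal difference of 0.18 was not called. The call in aggregates was lost under 5 of 21 other settings, among them leaving out any 1 of the aggregate arrays. That in Matrigel was lost under 4 of 21.

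The other 12 effectors were not called. Ifit2, of a family that binds viral RNA, stood at 5.95 and 5.83 in 14B3 in basal culture, against 6.89 and 6.29 in 9A1, a difference of -0.70 (95% interval -1.12 to -0.29, limma adjusted p = 0.107). That was the largest difference among the 28 uncalled members. Bst2, tetherin, which holds budding virus on the cell surface, differed by -0.65 in basal culture (adjusted p = 0.208) and was called lower in 14B3 there with the replicate number as a block (adjusted p = 0.0446). Mx1, a dynamin-like GTPase that blocks viral nucleocapsids, differed by 0.52 in Matrigel (adjusted p = 0.118). Of the 28 uncalled members, 21 had differences under 0.5 in every culture.

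Irgm1 encodes a regulatory immunity-related GTPase that acts on vacuoles holding intracellular microbes. In basal culture its log2 signal was 9.21 and 9.18 in 14B3, against 10.06 and 10.05 in 9A1. In aggregates it was 10.98 and 11.20 in 14B3, against 10.42 and 10.70 in 9A1. In Matrigel it was 9.66 and 9.71 in 14B3, against 10.48 and 10.24 in 9A1. The 14B3 arrays lay below the 9A1 arrays in basal culture and Matrigel and above them in aggregates, with no overlap. The log2 difference was -0.86 in basal culture (limma adjusted p = 0.0109), 0.53 in aggregates (adjusted p = 0.147) and -0.68 in Matrigel (adjusted p = 0.0231), each with an SE of 0.14. The rise in aggregates over basal culture was 3.72-fold in 14B3 and 1.42-fold in 9A1, and the difference between these responses was called (1.39, SE 0.20, adjusted p = 0.012). That last call was lost without basal_9A1 replicate 1, basal_9A1 replicate 2, basal_14B3 replicate 2 or aggregate_14B3 replicate 2, at adjusted p-values of 0.0505 to 0.0752. The basal line difference was not called without any 1 of the 4 basal arrays, and that in Matrigel under 6 of 22 other settings.

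The other 4 GTPases, Igtp, Iigp1, Gbp2 and Gbp3, showed no called line difference. Gbp3, a guanylate-binding protein, had the largest, 0.58 in Matrigel (limma adjusted p = 0.189), and Igtp, another immunity-related GTPase, differed by 0.35 in aggregates. Iigp1 and Gbp2 stayed within 0.34 of 0 in every culture.

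Of the 9 genes of antigen processing and MHC class I, Tap1, H2-K1 and H2-D1 were called between the lines. Tap1, a subunit of the peptide transporter, had a log2 signal of 7.71 and 7.82 in 14B3 in basal culture, against 8.36 and 8.52 in 9A1. Its difference was -0.68 there (SE 0.15, limma adjusted p = 0.0375), -0.09 in aggregates and 0.22 in Matrigel. Only the basal arrays were lower in 14B3; the aggregate arrays of the lines overlapped. The basal call was lost without any 1 of 8 of the arrays, all 4 basal arrays among them, and with the mean of the 4 Tap1 probe sets.

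The immunoproteasome subunits Psmb8, Psmb9 and Psmb10, the other transporter subunit Tap2 and the loading factor Tapbp (tapasin) were called in no culture. Psmb8 came closest, with a log2 difference of 0.69 in aggregates (95% interval 0.29 to 1.10, limma adjusted p = 0.135), and it was called there with the replicate number as a block (adjusted p = 0.0113). B2m encodes beta-2-microglobulin, the light chain of every class I molecule. Its log2 signal in 14B3 was 12.06 and 11.98 in basal culture, 13.31 and 13.23 in aggregates and 12.56 and 12.58 in Matrigel. In 9A1 that of B2m was 12.04 and 12.29, 13.25 and 13.46, and 12.67 and 12.85 in the same cultures. The arrays of the lines overlapped in basal culture and aggregates, and the 95% intervals of the 3 differences together ran from -0.50 to 0.23.

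H2-K1 and H2-D1 encode class I heavy chains, which carry the peptide to the cell surface. In basal culture the H2-K1 log2 signal was 9.89 and 10.15 in 14B3, against 10.15 and 10.61 in 9A1. In aggregates it was 10.56 and 10.27 in 14B3, against 11.90 and 12.58 in 9A1. In Matrigel it was 10.15 and 10.40 in 14B3, against 11.57 and 11.57 in 9A1. The arrays of the lines overlapped in basal culture, and 14B3 lay below 9A1 in both other cultures. H2-K1 was 3.55-fold lower in 14B3 aggregates (log2 difference -1.83, SE 0.23, limma adjusted p = 0.00135) and 2.45-fold lower in 14B3 in Matrigel (-1.29, SE 0.23, adjusted p = 0.00723), while the basal difference was -0.36 (adjusted p = 0.857). Between basal culture and aggregates its signal changed by 0.40 in 14B3 (adjusted p = 0.23) and rose by 1.86 in 9A1; the difference of these responses was not called (-1.47, adjusted p = 0.0962) but was with the replicate number as a block (adjusted p = 0.0319).

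The H2-D1 probe set went the other way. In basal culture its log2 signal was 8.85 and 9.21 in 14B3, against 7.18 and 7.55 in 9A1. In aggregates it was 10.74 and 11.01 in 14B3, against 9.54 and 10.57 in 9A1. In Matrigel it was 10.22 and 10.48 in 14B3, against 8.76 and 9.40 in 9A1. The 14B3 arrays were higher in every culture. The log2 difference was 1.67 in basal culture (SE 0.31, limma adjusted p = 0.0179), 0.82 in aggregates (adjusted p = 0.407) and 1.27 in Matrigel (adjusted p = 0.0424). With the replicate number as a block the aggregate difference was called too (adjusted p = 0.0323). The call in Matrigel was lost under 14 of 22 other settings, 9 of which leave out 1 array.

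These class I differences depend on which probe set stands for the gene. Class I heavy chain genes are close copies of each other and highly polymorphic between mouse strains, and all but 2 of the 13 probe sets named H2-K1 or H2-D1 are of the kind (_x_at) whose probes may bind more than 1 transcript. The 9 probe sets named H2-D1 ran from -1.19 to 1.25 in their log2 difference averaged over cultures. The one used gave 1.25, while the next brightest gave -1.19 (limma adjusted p over all named probe sets = 0.000113) and the fifth gave -0.80 (adjusted p = 0.0075), both called lower in 14B3; the other 6 were not called. Of the 4 named H2-K1, 2 were called lower, at -1.16 and -0.90, and the other 2 lay at 0.20 and near 0. Neither gene's direction between the lines is settled by these arrays, and cross-binding of the probes was not tested. By contrast, the 2 B2m probe sets gave -0.14 and -0.32, the second called (adjusted p = 0.0437).

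**Figure D4:**
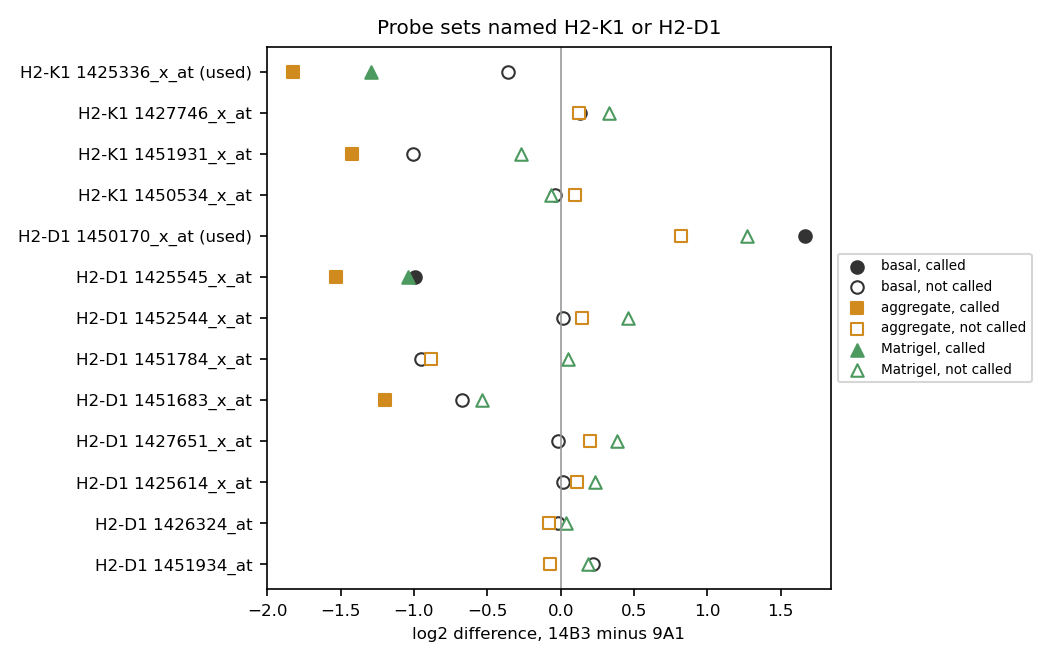
Log2 difference of 14B3 minus 9A1 for each probe set named H2-K1 or H2-D1, in basal culture (circles), aggregates (squares) and Matrigel (triangles); filled symbols have a limma adjusted p below 0.05 over all named probe sets, where the H2-D1 set used misses the threshold in Matrigel (0.0577). Sets are ordered by brightness within a gene; the set used for H2-D1 lies right of 0 and the next brightest left of 0, in all 3 cultures.

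Averaged over cultures, 5 of 34 members were called, against 6% of all genes: Ifi202b (-4.78), H2-K1 (-1.16) and Irgm1 (-0.34) lower in 14B3, and H2-D1 (1.25) and Oasl2 (0.53) higher. The average for Irgm1 joins differences of opposite sign, and its call was lost under 10 of 21 other settings. With the replicate number as a block, Irf7 (0.36, limma adjusted p = 0.0167) and Bst2 (-0.37, adjusted p = 0.0209) were called in the average as well. Across the 34 members, the line differences in basal culture and aggregates had a Pearson r of 0.84, those in basal culture and Matrigel 0.91, and those in aggregates and Matrigel 0.92. Without Ifi202b, H2-K1 and H2-D1 the values were 0.14, 0.43 and 0.16 over 31 genes. These correlations are across genes, which are not independent replicates, and the cultures share the lines but no arrays.

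Of the 35 other interferon-stimulated genes measured, 2 were called between the lines in basal culture (5.71%), 1 in aggregates (2.86%) and 3 in Matrigel (8.57%), against 1.9%, 1.52% and 3.77% of all genes. Ifitm2, a membrane protein that hinders virus entry, had a log2 signal of 9.09 and 9.46 in 14B3 in basal culture, against 11.28 and 11.56 in 9A1. In aggregates it was 9.56 and 9.08 in 14B3, against 11.11 and 11.18 in 9A1, and in Matrigel 11.58 and 11.95 in 14B3, against 11.84 and 12.06 in 9A1. The gap of -2.14 in basal culture and -1.82 in aggregates (limma adjusted p = 0.000185 and 0.000498) shrank to -0.19 in Matrigel, where the arrays overlapped. Its neighbour in function Ifitm3, a member, differed by at most 0.46 in any culture. Of the same list, Oasl1, a translational inhibitor of Irf7, was higher in 14B3 in Matrigel (1.21, adjusted p = 0.00365), Isg20, an exonuclease, higher in 14B3 in basal culture (0.89, adjusted p = 0.0339), and Trim34a (-0.81, adjusted p = 0.0432) and the chemokine Cxcl11 (-0.65, adjusted p = 0.0187) lower in 14B3 in Matrigel. The call was lost under 13 of 21 other settings for Trim34a, 6 of 21 for Cxcl11 and 7 of 22 for Isg20.

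None of the 12 measured interferons and receptors, the 12 kinases, STATs, IRFs and feedback genes, or the 11 MHC class II genes was called in any line comparison. Sting1, the adaptor of cytosolic DNA sensing, was called in the average over cultures (-0.44, limma adjusted p = 0.0197), the only 1 of 8 nucleic acid sensing genes to be called there, and lost that call under 7 of 21 other settings. In Matrigel it differed by -0.61 (adjusted p = 0.078, and 0.0281 with the replicate number as a block). The class I relatives H2-Q2 (-0.90, adjusted p = 0.0447) and Cd1d1 (-0.73, adjusted p = 0.0431) were called lower in 14B3 in the average, which is 2 of 11 in that list (18.2%, against 6% of all genes). The call was lost under 11 of 20 other settings for H2-Q2 and 13 of 20 for Cd1d1. Neither was called in any single culture. Mean log2 signal of H2-Q2 in basal culture was 4.165 in both lines. In 9A1 its arrays stood at 5.24 and 6.87 in aggregates and at 4.65 and 5.58 in Matrigel. In 14B3 they stood at 4.26 and 4.28 in aggregates. The 9A1 aggregate arrays of Cd1d1 lay apart too, at 9 and 7.8. The constitutive proteasome subunits Psmb5, Psmb6 and Psmb7, which the immunoproteasome subunits replace, differed by at most 0.45 between the lines.

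Some markers of other cells differed between the lines too. Csf1r, the receptor of macrophage growth factor, was lower in 14B3 by 1.79 on the log2 scale in aggregates and by 1.26 in Matrigel (limma adjusted p = 4.16e-05 and 0.000482). The summed linear signal of the 9 measured liver macrophage markers was 2031 to 2357 in 14B3 aggregates, against 4509 to 4585 in 9A1 aggregates, and 1579 to 1709 in 14B3 in Matrigel, against 2340 to 2751 in 9A1. Csf1r is 1 of the 9 and the brightest of them, at a mean log2 signal of 11.73 in 9A1 aggregates, against 8.09 for the next, C1qa. The sums therefore largely follow Csf1r. The other 8 of these markers were not called between the lines in any culture. The median log2 difference of the 9 was 0.094 in aggregates and 0.026 in Matrigel. In Matrigel the endothelial markers Cdh5 (1.55) and Vwf (0.87) were called higher in 14B3, and the other 11 of 13 were not called. The summed endothelial signals overlapped, at 2286 to 2700 in 14B3 and 1823 to 2461 in 9A1. The stem cell factor receptor gene Kit (0.77) was called higher in 14B3 too. Of 13 stellate and fibroblast markers, Acta2 (-2.06), Col1a1 (-1.28) and Col3a1 (-1.99) were called lower and 10 were not called. Their summed signal was 2074 to 2388 in 14B3, against 3718 to 4735 in 9A1. The median log2 difference was 0.044 over the endothelial and -0.054 over the stellate and fibroblast markers. Of all genes, 3.77% were called. Of 13 hepatocyte and liver progenitor markers, Afp was higher (2.48) and Sox9 lower (-0.83) in 14B3 in basal culture. That is 15.4%, against 1.9% of all genes, and 11 were not called. Sox9 was lower in Matrigel too (-0.78), where the other 12 were not called. Their part in the line differences of the interferon genes was not tested.

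Culture was then set beside line, within each line, to ask whether the lines share the response. In aggregates members rose in both lines, though unevenly by role: 18 of 34 rose in 14B3 and 20 in 9A1, against 15.7% and 17.4% of all genes. Of the 34, 17 (50%) rose in both lines, against 12.9%. In either direction, 18 members were called in 14B3 and 22 in 9A1, against 33.2% and 36.9% of all genes. None fell in both, against 15.2% of all genes. The median log2 change was 0.62 in 14B3 and 0.51 in 9A1, against 0.064 and 0.11 over all genes. Across the members the changes in the lines had a Pearson r of 0.78 and a Spearman rho of 0.80 (34 genes).

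By role, Ifih1 rose in both lines, as did 4 of the 5 STAT and IRF factors (Stat2, Stat3, Irf1 and Irf7), with Irf9 called only in 9A1. Of the 14 effectors, Ifit1, Ifit3, Oasl2 and Ifi35 rose in both. The median log2 change of the 14 was 0.018 in 14B3 and 0.243 in 9A1, beside 0.064 and 0.11 over all genes. That of the 9 antigen presentation genes was 1.06 in 14B3 and 1.19 in 9A1. Of the 5 GTPases, Irgm1 and Igtp did. Of the 9 antigen presentation genes, Psmb9, Psmb10, Tap2, Tapbp, B2m and H2-D1 rose in both, Psmb8 in 14B3 and H2-K1 in 9A1. Of the 4 probe sets named H2-K1, 2 were called higher in 9A1 aggregates.

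Tapbp had the largest rise among the members in 14B3. Its log2 signal in 14B3 was 11.02 and 11.30 in aggregates, against 8.38 and 8.09 in basal culture, a 7.58-fold rise (limma adjusted p = 1.06e-07). In 9A1 it was 10.75 and 10.87 in aggregates, against 8.49 and 8.72 in basal culture, a 4.60-fold rise (adjusted p = 6.18e-07). The aggregate arrays of both lines stood clear of the basal arrays. Ifih1 rose 4.21-fold in 14B3 and 3.76-fold in 9A1, Psmb10 3.45-fold and 2.64-fold, and B2m 2.38-fold and 2.28-fold. The constitutive proteasome subunits went the other way: Psmb7 was lower in aggregates by 0.58 on the log2 scale in 14B3 and by 0.91 in 9A1, both called, and Psmb5 and Psmb6 were called lower only in 9A1.

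Ifit2 changed by -0.44 in 14B3 aggregates (limma adjusted p = 0.101) and was called lower in 9A1 aggregates (-1.21, adjusted p = 0.000307). Bst2 changed by -0.18 in 14B3 aggregates, not called, and was called lower in 9A1 aggregates (-0.72, adjusted p = 0.0158). For neither was the difference between the responses called. The 11 members called in neither line in aggregates were Usp18, Mx1, Mx2, Eif2ak2, Adar, Trim25, Ifitm3, Iigp1, Gbp2, Gbp3 and Tap1, which include genes of textbook interferon signatures such as Usp18 and Mx1. With the replicate number as a block, Mx2 was called higher in 9A1 aggregates (0.31, limma adjusted p = 0.0322, against 0.197 without the block) and Tap1 in 14B3 aggregates (0.37, adjusted p = 0.0246, against 0.076). Of the members, 1 (Irgm1) was called in the difference between the aggregate responses, against 0.468% of all genes.

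In Matrigel 9 members rose in 14B3 and 11 in 9A1, against 8.91% and 9.71% of all genes, and 7 rose in both (20.6%), against 6.14%. In either direction the counts were 9 in 14B3 and 13 in 9A1, against 16.5% and 17.8% of all genes. None fell in both, against 4.86%. The median log2 change was 0.27 in 14B3 and 0.33 in 9A1, beside -0.048 and -0.033 over all genes. The 7 that rose in both were Ifih1, Stat3, Oasl2, Psmb10, Tapbp, B2m and H2-D1, each also raised in aggregates of both lines. The rises of H2-D1 depend on its probe set: with one not ending in _x_at or _s_at its Matrigel change was 0 in 14B3 and -0.05 in 9A1, and its aggregate change in 14B3 was 0.38 (limma adjusted p = 0.0798). Irf7 and Irgm1 were called higher in 14B3 and not in 9A1. Irf1, Ifitm3, Ifi202b and H2-K1 were called higher in 9A1 and not in 14B3, and Ifit2 (-0.75) and Tap1 (-0.47) lower in 9A1. The rise of H2-K1 in 9A1 in Matrigel rests on the probe set used (1.19). Its other sets gave 0.32, -0.02 and -0.34 there, none called. With the mean of its probe sets the change was 0.29 and was not called. Among these Matrigel calls, Oasl2 in 9A1 was lost under 12 of 21 other settings, Tap1 in 9A1 under 10 of 21 and Irgm1 in 14B3 under 8 of 22. With the replicate number as a block, 14 members were called in 14B3, against 9 without it: Irf1 (adjusted p = 0.033), Irf9, Gbp3 and Tap1 joined as higher and Ifi202b as lower. In 9A1 the block added Irf7 (0.60, adjusted p = 0.00894) and Igtp (0.53, adjusted p = 0.029) as higher and Bst2 (-0.60, adjusted p = 0.0136) as lower. It also added Tap1 to the calls on the difference between the Matrigel responses (0.90, adjusted p = 0.0232). Of the members, 1 (Ifi202b) was called in the difference between the Matrigel responses, against 0.686% of all genes. The Matrigel count of 13 in 9A1 came down to 6 without basal_9A1 replicate 1, and the 9 in 14B3 to 4 and 5 without basal_14B3 replicate 1 and replicate 2. The aggregate and Matrigel responses of a line share its basal arrays.

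**Figure D5:**
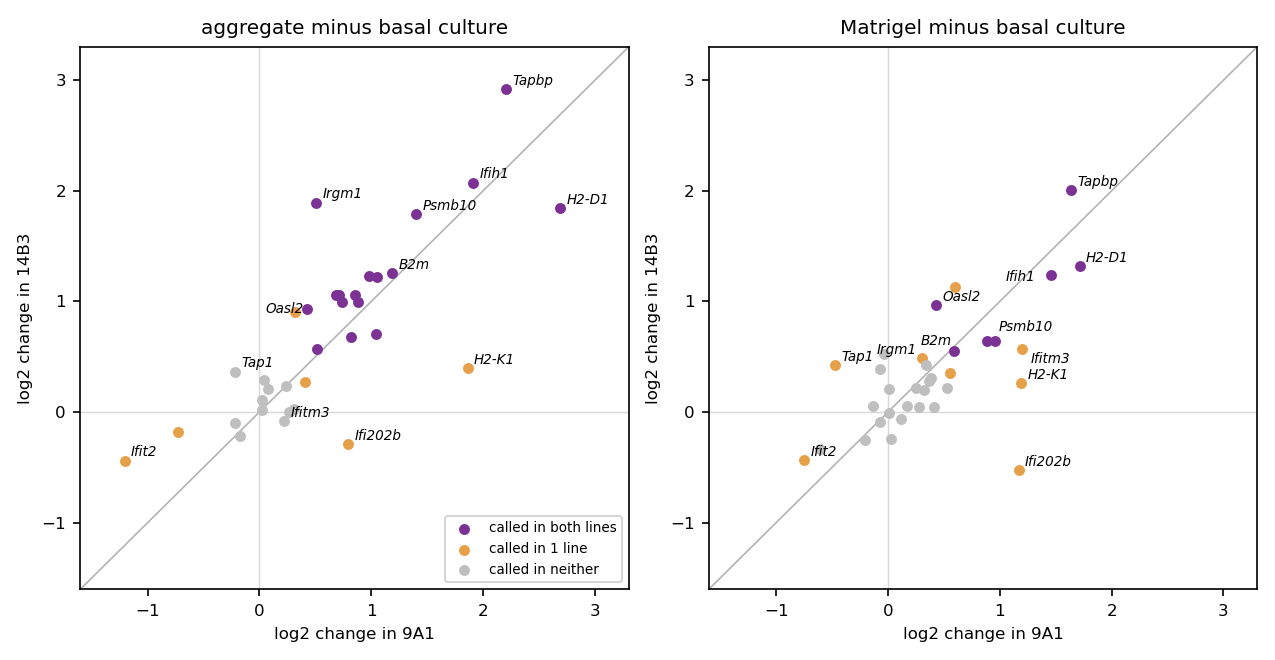
Log2 change from basal culture in 14B3 (vertical axis) against that in 9A1 (horizontal axis) for each of the 34 genes, in aggregates (left) and Matrigel (right); colour shows whether the change was called in both lines, in 1 or in neither, and the diagonal marks equal changes. Most called genes lie in the upper right, Irgm1 lies above the diagonal in aggregates, and H2-K1 and Ifi202b lie below it in both panels.

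Genes of the pathway outside the list were compared between cultures as well. Of the 12 measured interferons and receptors, 4 rose in 14B3 aggregates (33.3%) and 5 in 9A1 aggregates (41.7%), against 15.7% and 17.4% of all genes, and none was called lower. The largest rises in this list were of receptor subunits, Il10rb in 14B3 (1.66) and Ifngr2 in 9A1 (1.84). Interferon genes moved less. Mean log2 signal of Ifnb1 in basal culture and aggregates was 6.81 and 6.87 in 14B3, and 6.465 and 6.96 in 9A1. For Ifna5 it was 6.61 and 7.165 in 14B3, and 6.58 and 6.80 in 9A1. Among genes chosen after their values were seen, the interferon gamma receptor subunit Ifngr2 was higher in aggregates by 1.56 on the log2 scale in 14B3 and by 1.84 in 9A1, and Jak2, the kinase bound to it, by 0.78 and 1.44, all called by limma. Ifi30, the lysosomal thiol reductase of MHC class II processing, was higher by 2.40 in 14B3 and 2.58 in 9A1. Of the 35 other interferon-stimulated genes, 10 rose (28.6%) and 2 fell in 14B3 aggregates, and 9 rose (25.7%) and 1 fell in 9A1 aggregates. Of the 11 MHC class II genes, 1 rose in each line (9.09%), a smaller share than that of all genes.

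Markers of cell types moved with culture too. Of 13 hepatocyte and liver progenitor markers, 6 rose (46.2%) and 2 fell in 14B3 aggregates, and 7 rose (53.8%) and 3 fell in 9A1 aggregates. Of all 12394 genes, 15.7% rose and 2167 fell in 14B3 aggregates, and 17.4% rose and 2417 fell in 9A1 aggregates. Their summed linear signal was 82410 to 94460 in 14B3 aggregates, against 50370 to 51130 in 14B3 in basal culture, and 81410 to 102500 in 9A1 aggregates, against 44710 to 45560 in 9A1 in basal culture. In Matrigel 6 of these markers rose in 14B3 (46.2%) and 8 in 9A1 (61.5%), against 8.91% and 9.71% of all genes, and none was called lower. Csf1r was higher in aggregates by 0.75 on the log2 scale in 14B3 (limma adjusted p = 0.00166) and by 2.21 in 9A1 (adjusted p = 3.79e-07), and it was the only 1 of the 9 liver macrophage markers called there. The summed signal of those 9 was 2031 to 2357 in 14B3 aggregates, against 1569 to 1749 in 14B3 in basal culture, and 4509 to 4585 in 9A1 aggregates, against 1623 to 1829 in 9A1 in basal culture. Csf1r is the brightest of the 9, so these sums largely follow it. The median log2 change of the 9 in aggregates was 0.213 in 14B3 and 0.187 in 9A1, beside 0.064 and 0.11 over all genes. The part of these markers in the culture responses of the interferon genes was not tested.

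Leaving out arrays bears on the smaller line differences. In basal culture the count of 4 called members came down to 1, Ifi202b, without basal_14B3 replicate 1, basal_14B3 replicate 2 or basal_9A1 replicate 1. In Matrigel the 5 came down to 2 without Matrigel_9A1 replicate 1 (Ifi202b and Oasl2), without Matrigel_14B3 replicate 2 (Ifi202b and H2-K1) or without Matrigel_14B3 replicate 1, the 5-day array (Ifi202b and Gbp3). In aggregates the 3 became 5 with the replicate number as a block, where Psmb8 and H2-D1 joined them. Ifi202b was called between the lines in each culture under all 21 other settings in which it was tested, each of them with the same probe set.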

How the data were processed

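Total RNA was measured on 12 one-colour Affymetrix mouse 430A arrays. The deposited values are signal intensity per probe set on a linear scale, from 14.4 to 27318, which the authors computed in R 2.3.1 by RMA, per the submitters' processing notes. RMA smooths probes into 1 value per probe set and normalizes between arrays, so the spread between arrays may be understated and shifts shared by all genes are removed. Log2 of each deposited value was taken; no filter on dim genes was applied. Of 22690 probe sets, 20393 carried 1 gene symbol, 691 several and 1542 none, and 64 were controls; only those with 1 symbol were used, named by GEO's platform annotation and updated through gene IDs (20364 matched) to a RefSeq table of GRCm38.p6. The brightest probe set stood for each of 12394 genes, of which 4958 had more than 1; of the members, 11 did. Upstream sequences came from RefSeq.

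Log2 values were modelled in R 4.3.3 by limma 3.58.1 (functions lmFit, eBayes) as 6 group means. The residual degrees of freedom were 6, and the residual SD had a median of 0.17. Adjusted p-values are Benjamini-Hochberg over all genes. Contrasts were 14B3 minus 9A1 in each culture and averaged, aggregate and Matrigel minus basal in each line, and the differences between the lines in these responses. On simulated data for the basal line contrast (12394 genes), 12.4%, 74.8%, 96.8% and 99.6% of genes changed by 0.5, 1, 2 and 4 log2 units were called, and 4.19% of calls were false. Simulated noise was independent between arrays.

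The members, lists and motifs were chosen with earlier results of these data known. Named genes were the members (with every array for those called between the lines with a log2 difference of at least 1, for the class I genes, B2m, Ifih1, Irf7, Irf9 and Stat2, and, after seeing the values, for the other members described array by array), up to 4 called genes per direction of each pathway list, the constitutive proteasome subunits and called or defining cell markers. Other genes named were chosen after their values were seen.

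Whether replicate numbers pair the arrays was checked: replicate 2 minus replicate 1 was correlated across genes for every pair of groups (15 pairs), and r lay between 0.101 and 0.644. The pairing comes from the data, not the labels, so a fit blocked on replicate number is given beside a member's result where it changes the call. Other alternatives were each array left out, 2 other scalings, an offset of 50, 2 other choices of probe set, array weights, only the arrays compared, only genes brighter than the median gene, and calls limited to changes of 1 log2 unit or more. Figures used Python 3.11.15 and matplotlib 3.10.9.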

Additional observations from a re-analysis of the deposited data

Results flagged for a closer look

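For 3 genes the change with culture differed between the lines by the test of the difference itself. The aggregate response of Irgm1 was greater in 14B3 than in 9A1 by 1.39 on the log2 scale (limma adjusted p = 0.012): 1.89 in 14B3 and 0.51 in 9A1. The Matrigel response of Ifi202b differed by -1.7 (adjusted p = 0.0106): -0.53 in 14B3 and 1.17 in 9A1, where both arrays of each line moved the way of their mean relative to the basal arrays. The Matrigel response of Ifitm2, a membrane protein against virus entry, differed by 1.95 (adjusted p = 0.00911): 2.49 in 14B3 and 0.53 in 9A1, where the change itself was not called (adjusted p = 0.1).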

How the results depend on the processing

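Counts below are of members called. Without any 1 array they ran from 1 to 4 for the line difference in basal culture (4 with all arrays), 2 to 3 for the line difference in aggregate culture (3), 2 to 5 for the line difference in Matrigel culture (5) and 4 to 6 for the line difference averaged over cultures (5); a lone array left in a group was assumed to vary like the others. They ran from 16 to 18 for the aggregate response in 14B3 (18), 15 to 22 for the aggregate response in 9A1 (22), 4 to 10 for the Matrigel response in 14B3 (9), 6 to 16 for the Matrigel response in 9A1 (13), 0 to 2 for the difference between lines in aggregate response (1) and 0 to 1 for the difference between lines in Matrigel response (1). With the replicate block, 5 were called for the line difference in aggregate culture (also 5 when the 5-day Matrigel array was left out as well, a setting chosen after seeing the data), 14 for the Matrigel response in 14B3, and 2 for each difference between lines in response; the block cost no member a call. Over all genes the block raised the line calls to 431 from 236 in basal culture, 287 from 189 in aggregates, 746 from 467 in Matrigel and 1244 from 744 on average, and the calls on differing responses to 118 from 58 and to 186 from 85. Quantile normalization gave 2 for the difference between lines in aggregate response. With all probe sets of a gene averaged, 2 were called in basal culture and 3 in Matrigel. Array weights and a fit on the compared arrays alone each gave 3 in Matrigel. Among genes above the median level, fewer members were tested, and 2, 1, 3 and 3 were called between the lines in basal culture, aggregates, Matrigel and on average, 9 and 10 for the aggregate response in 14B3 and 9A1, 8 for the Matrigel response in 9A1 and 0 for the difference between lines in Matrigel response, where Ifi202b was not tested. Asking for a change of at least 1 log2 unit gave 2 in basal culture, 3 in Matrigel and 3 on average between the lines, 11 and 9 for the aggregate response in 14B3 and 9A1, and 4 and 6 for the Matrigel response in 14B3 and 9A1.

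Among called comparisons of members, the sign turned only for H2-D1. Its basal line difference was -0.08 with the mean of its probe sets and -0.01 with a probe set not ending in _x_at or _s_at, and its average line difference -0.08 and -0.02. With that specific probe set its Matrigel response was 0 in 14B3 and -0.05 in 9A1. The probe set was all that changed in these settings. Of 81 called comparisons of members, 44 were called under every counted setting in which the gene was tested. The setting that asks for a change of at least 1 log2 unit is not counted there. It is also left out of the counts of settings under which a call was lost. The simulated data called 12.4% of changes of 0.5 log2 units in the basal line contrast, so uncalled members may differ by that much.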

Other observations

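Genes near Ifi202b were looked at after its values were seen, by gene order in the RefSeq table of GRCm38.p6. Of 9 other measured genes within 1 Mb, 1 was called between the lines: Mndal, another interferon-inducible gene of the same family. Its log2 signal in basal culture was 7.21 and 7.42 in 14B3, against 5.40 and 5.91 in 9A1. In aggregates it was 8.94 and 9.13 in 14B3, against 5.62 and 5.44 in 9A1, and in Matrigel 8.07 and 7.53 in 14B3, against 6.87 and 6.01 in 9A1. The 14B3 arrays were higher in every culture, in the direction opposite to Ifi202b, with a limma adjusted p of 0.00927 in basal culture, 2.9e-05 in aggregates and 0.0152 in Matrigel. The Mndal probe set used ends in _x_at, whose probes may bind more than 1 transcript. The family members Aim2, a DNA sensor, Ifi204 and Ifi209 were measured and not called between the lines.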
